A study of Mus musculus with 8 samples.

Results

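Class IIa histone deacetylases (HDACs) and the genes of the denervation response that lie around them in skeletal muscle were examined in the soleus of mice with a heterozygous Dnm2 mutation. The set holds 8 genes, namely the class IIa enzymes Hdac4, Hdac5 and Hdac9, the corepressor Dach2, the HDAC kinase Sik1, and Runx1, Ncam1 and Ampd3, which are known to respond to loss of the nerve. They were chosen by gene symbol among the 22880 gene rows of the count tables, and all 8 were found and passed the filter on low counts. The soleus, a calf muscle rich in slow fibres, was taken from 4 control mice (Dnm2 +/+) and 4 Dnm2 +/K562E mice, all male, 2 months old and on the C57BL/6 background (the J substrain in the study's methods). Dnm2 encodes dynamin 2, a GTPase that cuts vesicles from membranes, and the K562E change lies on 1 allele of the endogenous gene in every cell of the animal. The labels name no nerve injury in either group, so that the genes are compared here between genotypes and not between innervated and denervated muscle.

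Class IIa HDACs have little deacetylase activity of their own and act as repressors that bind MEF2 transcription factors in the nucleus. Kinases of the calcium, protein kinase D and salt-inducible families phosphorylate them, and 14-3-3 proteins then hold the phosphorylated enzymes in the cytoplasm. When a muscle loses its nerve, HDAC4 and HDAC5 are known to repress Dach2, a corepressor that keeps the myogenin gene silent in innervated fibres. Myogenin then drives the acetylcholine receptor subunit genes and the ubiquitin ligases of atrophy. Runx1, a transcription factor that limits wasting of denervated fibres, and Ncam1, an adhesion molecule that innervated fibres keep at the synapse, are both known to be induced by denervation, as is Ampd3, which deaminates AMP. Sik1 is a kinase induced through CREB that phosphorylates class IIa HDACs.

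The promoters of 3 of the genes and of the myogenin gene Myog are shown as examples of runs with letters known to be bound by factors of this pathway. Each run is the strand of the gene from 250 bases before to 50 bases after a transcript start, taken from RefSeq (GRCm38.p6). Capitals mark E-boxes (CANNTG, the letters bound by myogenin and its relatives), MEF2 cores (CTANNNNTA with A or T at each N) and RUNX cores (TGTGGT), each searched on both strands, so that a core on the other strand appears as its reverse complement. An E-box reads the same class of letters on both strands and was counted once, and MEF2 cores can overlap each other.
Hdac5: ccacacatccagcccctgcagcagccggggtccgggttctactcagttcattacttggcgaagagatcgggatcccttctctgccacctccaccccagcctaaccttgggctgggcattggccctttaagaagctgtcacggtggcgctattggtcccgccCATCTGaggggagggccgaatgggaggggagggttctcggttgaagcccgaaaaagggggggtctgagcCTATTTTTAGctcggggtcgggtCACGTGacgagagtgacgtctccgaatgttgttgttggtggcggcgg
Dach2: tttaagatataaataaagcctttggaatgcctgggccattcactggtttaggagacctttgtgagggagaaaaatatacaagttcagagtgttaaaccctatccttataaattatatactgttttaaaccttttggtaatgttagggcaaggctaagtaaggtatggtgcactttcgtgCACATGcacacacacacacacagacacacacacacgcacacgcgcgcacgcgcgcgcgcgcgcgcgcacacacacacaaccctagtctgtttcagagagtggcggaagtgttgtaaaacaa
Runx1: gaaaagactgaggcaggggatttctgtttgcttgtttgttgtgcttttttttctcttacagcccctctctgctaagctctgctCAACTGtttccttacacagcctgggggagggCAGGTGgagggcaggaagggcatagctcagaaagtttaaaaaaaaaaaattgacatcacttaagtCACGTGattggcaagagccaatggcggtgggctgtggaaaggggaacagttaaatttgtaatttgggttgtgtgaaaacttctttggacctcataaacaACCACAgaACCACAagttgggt
Myog: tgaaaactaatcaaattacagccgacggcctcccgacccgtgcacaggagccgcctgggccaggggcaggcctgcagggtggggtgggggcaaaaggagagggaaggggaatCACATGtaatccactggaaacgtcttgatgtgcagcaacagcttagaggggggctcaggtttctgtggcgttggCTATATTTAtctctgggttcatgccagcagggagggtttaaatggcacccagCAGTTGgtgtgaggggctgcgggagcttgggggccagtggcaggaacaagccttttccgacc
The Hdac5 run (chr11:102230123-102230422, minus strand) held 2 E-boxes and 2 overlapping MEF2 cores. The Dach2 run (chrX:113297260-113297559, plus strand) held 1 E-box and no MEF2 core in these letters. The Runx1 run (chr16:92826025-92826324, minus strand) held 3 E-boxes and, just after the start, 2 RUNX cores, and the Myog run (chr1:134289754-134290053, plus strand) held 2 E-boxes and 1 MEF2 core. Of 32851 promoters of this length, 72.3% held an E-box, 3.6% a MEF2 core, 16.8% a RUNX core and 1.79% a cyclic AMP response element (TGACGTCA), and these matches are a description of letters only. RefSeq lists 1 more start each for Dach2 and Runx1. The other Dach2 run held a RUNX core but no E-box or MEF2 core, and the other Runx1 run held none of these letters. The Hdac4 run, not shown, held none of the letters searched either. Promoters were matched for 6 of the 8 genes, and no run of the 6 genes held a cyclic AMP response element.

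The libraries held between 33407430 and 48832814 counted reads. Levels are normalized CPM, that is counts scaled by library size and by the TMM factor of edgeR, and errors are SDs over 4 mice. A gene was called higher or lower at an adjusted p under 0.05 in edgeR's quasi-likelihood test, with Benjamini-Hochberg adjustment over 14001 tested genes, and a log2 change of 0.58 or more up or down. Dnm2 itself had 66.3 ± 4.74 CPM in controls and 73.4 ± 2.43 CPM in Dnm2 +/K562E mice (log2 fold change 0.15, adjusted p = 0.0909 in the same test), and gene counts do not tell the alleles apart. The description field of Dnm2 +/K562E mouse 1 spells the mutation K452E, whereas its title and genotype say K562E. Control 4 stood apart in other genes, with 3130 CPM of the fast myosin Myh4 against 163 to 426 CPM in the other controls. Values without either mouse are therefore given for each gene. Control 1 stood apart too, as in Egr1, with 78.5 CPM against 11.2 to 20.5 CPM in the other controls. In chi-square per degree of freedom between libraries, control 1 was at 37.9 and 43.5 from controls 2 and 3. Control 4 was at 24.8 and 36.4 from them. The muscle was ground whole, so that fewer cells of a type and less RNA per cell cannot be told apart.

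Of the 8 genes, Runx1 and Ncam1 rose and Dach2 and Hdac5 fell in Dnm2 +/K562E soleus. Among all tested genes, 12.9% were called higher and 7.85% lower. The other 4 genes were not called, but Sik1 and Ampd3 had adjusted p-values under 0.05 with changes smaller than the fold threshold. By the p-value alone, 6 of the 8 genes differed, 3 in each direction, where 43.8% of all tested genes did. With scaling by library size alone 5 of the 8 did, 3 higher and 2 lower, since Ampd3 no longer passed, where 50.8% of all tested genes did (5608 higher and 1504 lower). The genotypes did not overlap in 5 of the 8 genes, compared with 41.2% of all tested genes. The median log2 fold change was -0.13 over the 8 genes and 0.01 over all tested genes, and with scaling by library size alone it was 0.09 over the 8 genes.

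**Figure D1:**
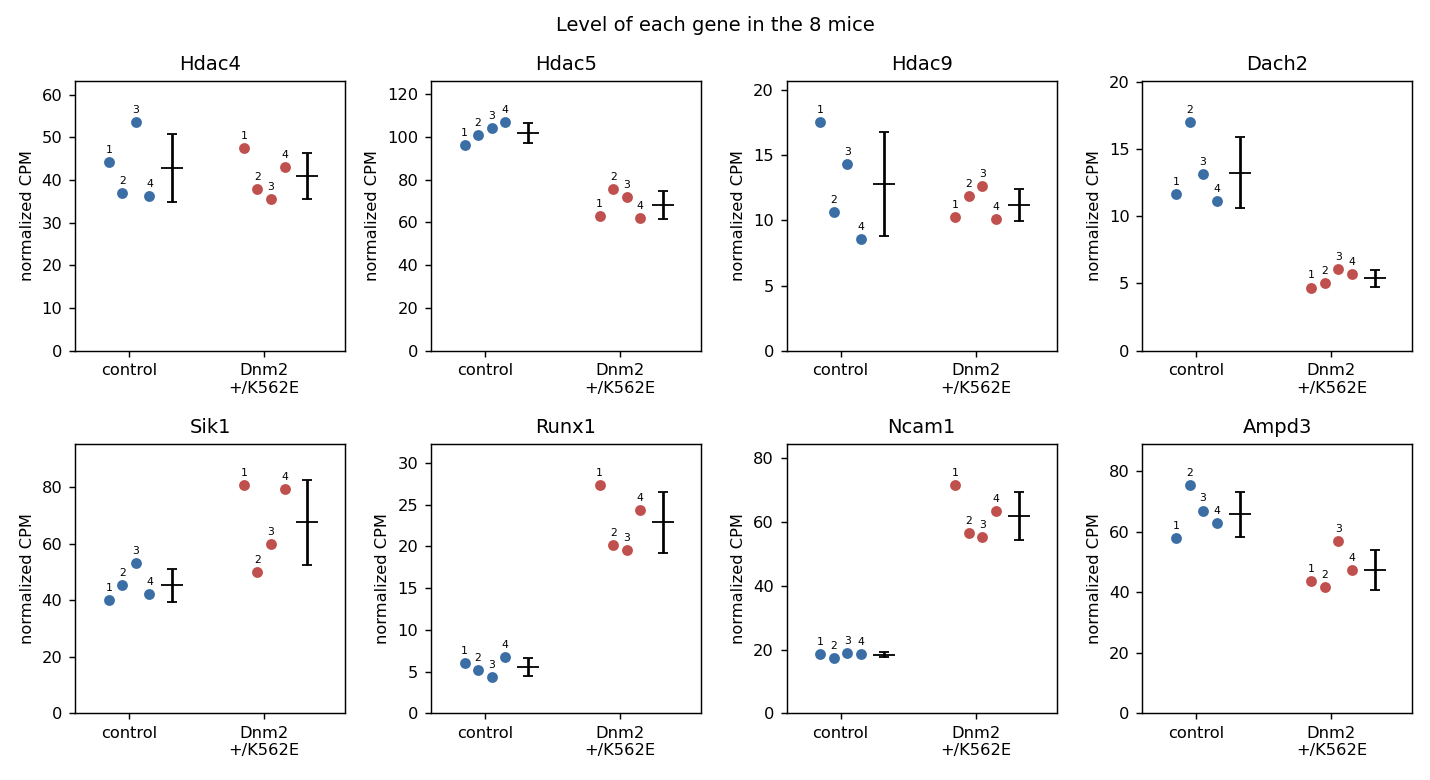
Normalized CPM of each of the 8 genes (vertical axis, from 0) in the 4 control and 4 Dnm2 +/K562E mice, numbered as in the sample titles, with the mean and SD as a bar. The genotypes are apart in Hdac5, Dach2, Runx1, Ncam1 and, by a narrow gap, Ampd3, and they overlap in Hdac4, Hdac9 and Sik1.

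Hdac4 lies on chromosome 1 (chr1:91928779-92195699, minus strand, GRCm38, as for all positions of genes given here). Its level was 44.3, 37, 53.6 and 36.4 CPM in controls 1 to 4. In Dnm2 +/K562E mice 1 to 4 it was 47.6, 38, 35.5 and 43.1 CPM. The genotypes overlapped, and control 3 was the highest mouse. The means were 42.8 ± 8.04 CPM in controls and 41 ± 5.4 CPM in Dnm2 +/K562E mice. The log2 fold change of -0.06 had a 95% interval from -0.353 to 0.229 (adjusted p = 0.729, edgeR quasi-likelihood test), and it was 0.15 with scaling by library size alone. It was -0.14 without control 4 and also -0.14 without Dnm2 +/K562E mouse 1. The annotation places Gm26720 on the opposite strand over 22.4% of the exon bases of Hdac4. Whether strand was used in the counting is not given in the sources used here, so that reads of the pair cannot be told apart.

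Hdac5 (chr11:102194432-102230166, minus strand) had the highest level per length among the class IIa genes. It had 96.1, 100.6, 103.9 and 106.8 CPM in controls 1 to 4 and 63.1, 75.4, 71.7 and 62 CPM in Dnm2 +/K562E mice 1 to 4. Every Dnm2 +/K562E mouse was below every control. The mean fell from 101.8 ± 4.61 to 68 ± 6.55 CPM, a log2 fold change of -0.582 (adjusted p = 0.000125 in edgeR's quasi-likelihood test, standard error 0.07). This lies at the fold threshold of 0.58, and the 95% interval ran from -0.747 to -0.417. The log2 fold change was -0.57 without control 4 and -0.55 without Dnm2 +/K562E mouse 1, in both cases inside the threshold, with adjusted p-values of 0.000414 and 0.000636 in the same test. The call was also lost with scaling by library size alone (-0.37), with at least 10 counts in every mouse (-0.572) and without control 3 (-0.574) or Dnm2 +/K562E mouse 4 (-0.54).

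Hdac9 (chr12:34047580-34917095, minus strand) encodes an enzyme of the same class whose main muscle product lacks the catalytic domain. It had 17.6, 10.6, 14.4 and 8.6 CPM in controls 1 to 4 and 10.3, 11.9, 12.6 and 10.1 CPM in Dnm2 +/K562E mice 1 to 4. All 4 Dnm2 +/K562E mice lay inside the range of the controls, which varied more. Its log2 fold change was -0.19 (95% interval -0.612 to 0.234, adjusted p = 0.453, edgeR quasi-likelihood test), and it was 0.03 with scaling by library size alone. It was -0.34 without control 4, -0.15 without Dnm2 +/K562E mouse 1 and -0.01 without control 1, the mouse with the highest Hdac9.

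Per kilobase of exon, Hdac5 was at 11.6 in controls and 7.75 in Dnm2 +/K562E mice, and Hdac7, the remaining class IIa gene, was at 6.79 and 6.63. Hdac4 was at 2.71 and 2.6 and Hdac9 at 0.872 and 0.765 on the same CPM per kilobase scale. On this scale the order of the 4 genes was the same in both genotypes. The length is that of exons merged over all annotated transcripts, at 15813 bases for Hdac4, 14665 for Hdac9, 8780 for Hdac5 and 6755 for Hdac7. The order and the shares below depend on these lengths, and the transcripts used in the muscle were not examined. As a share of the summed class IIa level per length, Hdac5 made up 52.9% ± 2.93 in controls and 43.6% ± 2.37 in Dnm2 +/K562E mice (SD, n = 4 each). The share of Hdac7 was 30.9% ± 0.877 and 37.4% ± 0.686, with no overlap between the genotypes. Its own level was 45.9 ± 1.58 CPM in controls and 44.8 ± 1.59 CPM in Dnm2 +/K562E mice.

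Dach2 (chrX:113297510-113836386, plus strand) had 11.7, 17, 13.2 and 11.2 CPM in controls 1 to 4. In Dnm2 +/K562E mice 1 to 4 it had 4.7, 5.07, 6.06 and 5.68 CPM. The highest of these was well below the lowest control, and control 2 stood above the other controls. Dach2 fell by 1.30 on the log2 scale (95% interval -1.62 to -0.975, adjusted p = 5.14e-05, edgeR quasi-likelihood test). The log2 fold change was -1.38 without control 4 and -1.24 without Dnm2 +/K562E mouse 1. Per kilobase of exon the level went from 1.34 to 0.545 CPM, and between 173 and 587 reads were counted per mouse.

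Sik1 (chr17:31844250-31855804, minus strand) had 40, 45.5, 53.3 and 42.1 CPM in controls 1 to 4. It had 80.8, 50, 59.9 and 79.4 CPM in Dnm2 +/K562E mice 1 to 4. Mice 1 and 4 were far above the controls, whereas mouse 2 was below control 3. The means were 45.2 ± 5.85 and 67.5 ± 15.1 CPM, and the log2 fold change of 0.576 (95% interval 0.245 to 0.908, adjusted p = 0.00973, edgeR quasi-likelihood test) missed the threshold by little. It was 0.53 without control 4 and 0.48 without Dnm2 +/K562E mouse 1, neither of them called. It was called higher in 5 of the alternatives that kept the fold threshold, at 0.787 with library size alone, 0.587 with at least 10 counts in every mouse, 0.663 without control 3, and 0.70 and 0.629 without Dnm2 +/K562E mouse 2 or mouse 3.

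Runx1 (chr16:92601466-92826149, minus strand), which regulates muscle structural genes after denervation and is also a blood cell factor, had 5.99, 5.14, 4.37 and 6.77 CPM in controls 1 to 4. It had 27.4, 20.2, 19.6 and 24.4 CPM in Dnm2 +/K562E mice 1 to 4. The lowest Dnm2 +/K562E mouse was well above the highest control. Runx1 had the largest change of the 8 genes, a log2 fold change of 2.04 (95% interval 1.7 to 2.38, adjusted p = 3.22e-06, edgeR quasi-likelihood test). This is a 4.12-fold difference, and the log2 fold change was 2.14 without control 4 and 1.94 without Dnm2 +/K562E mouse 1.

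Ncam1 (chr9:49502136-49798925, minus strand) had 18.7, 17.4, 19.1 and 18.7 CPM in controls 1 to 4, the narrowest spread among the 8 genes. It had 71.7, 56.7, 55.3 and 63.6 CPM in Dnm2 +/K562E mice 1 to 4. All of these were far above the controls, with a mean of 61.8 ± 7.52 against 18.5 ± 0.735 CPM. The log2 fold change was 1.74 (95% interval 1.55 to 1.94, adjusted p = 5.41e-07, edgeR quasi-likelihood test), the smallest adjusted p of the 8 genes. It was 1.74 without control 4 and 1.66 without Dnm2 +/K562E mouse 1. Gm11149, which lies over 4.81% of the Ncam1 exon bases on the opposite strand, had almost no reads in any mouse.

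Ampd3 (chr7:110768206-110812405, plus strand) had 57.8, 75.5, 67.1 and 63 CPM in controls 1 to 4 and 43.8, 41.8, 56.9 and 47.3 CPM in Dnm2 +/K562E mice 1 to 4. All Dnm2 +/K562E mice were below the controls, but mouse 3 only just below control 1. The log2 fold change of -0.47 (95% interval -0.711 to -0.234, adjusted p = 0.00478, edgeR quasi-likelihood test) did not reach the fold threshold, and with scaling by library size alone it was -0.26 (adjusted p = 0.0513 in the same test). It was -0.50 without control 4 and -0.44 without Dnm2 +/K562E mouse 1. Ampd3 shares 3.47% of its exon bases with Rnf141 on the opposite strand, which had 30.4 ± 0.992 CPM in controls and 29.6 ± 0.297 CPM in Dnm2 +/K562E mice.

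**Figure D2:**
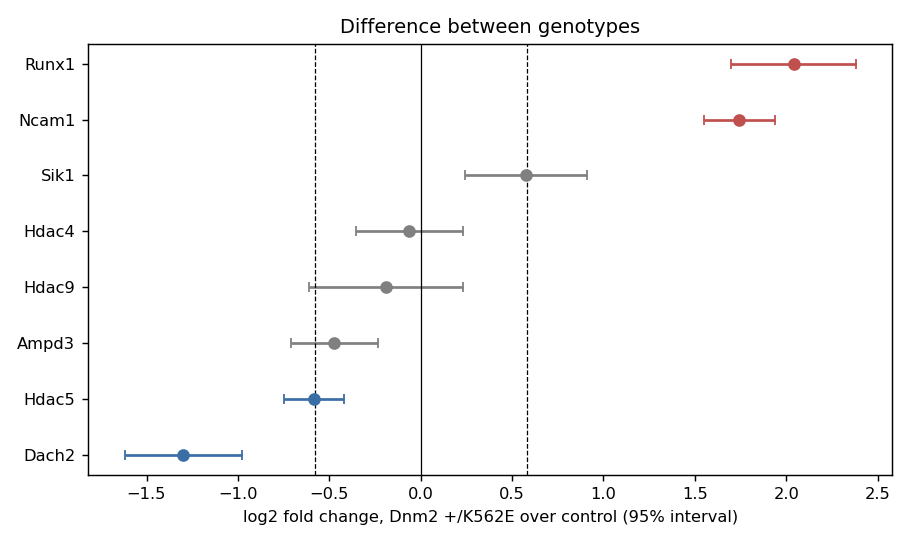
Log2 fold change of the 8 genes, Dnm2 +/K562E over control (horizontal axis), with 95% intervals from the edgeR fit and dashed lines at 0.58 in both directions. Runx1 (2.04) and Ncam1 (1.74) lie past the threshold on the right and Dach2 (-1.30) on the left, Hdac5 (-0.582) and Sik1 (0.576) lie at it, and the intervals of Hdac4 and Hdac9 span 0.

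With scaling by library size alone, the median over all 14001 genes moved from 0.01 to 0.219. Relative to that median, the log2 fold changes were 2.03 for Runx1, 1.73 for Ncam1, 0.57 for Sik1, -0.07 for Hdac4, -0.19 for Hdac9, -0.48 for Ampd3, -0.59 for Hdac5 and -1.31 for Dach2.

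The mice of a genotype did not vary alike in the 8 genes. In Dnm2 +/K562E soleus, mice 1 and 4 were above mice 2 and 3 in Hdac4, Sik1, Runx1 and Ncam1 and below them in Hdac5 and Hdac9. The same split appeared in Myog, with 67.1 and 61.5 CPM in mice 1 and 4 and 46.6 and 47.9 CPM in mice 2 and 3. In Dach2, mice 1 and 2 were the lowest, and in Ampd3 mouse 3 was the highest. Over deviations from the genotype means in the 8 mice, the highest correlation between 2 of the genes was 0.84, for Dach2 and Ampd3. Hdac5 and Sik1 had -0.70. Ncam1 had a correlation of 0.73 with Sik1, 0.72 with Hdac4, 0.61 with Runx1 and -0.68 with Hdac5. It had -0.55 with Dach2, -0.47 with Ampd3 and -0.16 with Hdac9. These values are a description over mice that share their library scaling.

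**Figure D3:**
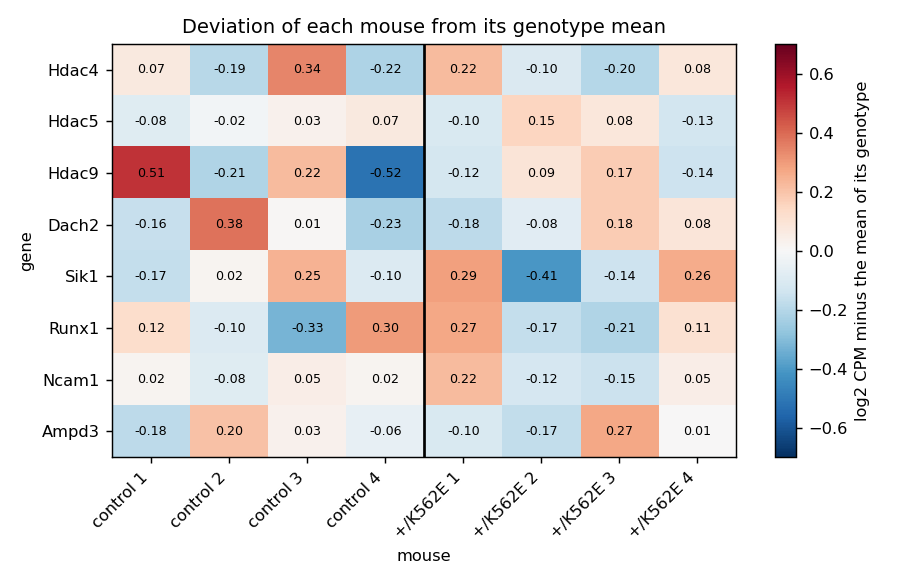
Deviation of each mouse from the mean of its genotype in log2 CPM (colour and printed value), for the 8 genes (rows) and the 8 mice (columns). Dnm2 +/K562E mice 1 and 4 are above their mean in Hdac4, Sik1, Runx1 and Ncam1, and the widest deviations are in Hdac9, at 0.51 in control 1 and -0.52 in control 4.

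Over the 8 mice, the tested gene most like Ncam1 in log2 CPM was the embryonic myosin Myh3, with a Pearson correlation of 0.999, followed by Plxnb2 (0.998) and Myl4 (0.997). The likest genes were Ddx54 (0.998) for Runx1, Pitpnm2 (0.996) for Dach2, Pcbp2 (0.995) for Hdac5 and Smim15 (0.99) for Sik1. They were Ube2m (0.985) for Ampd3, Lrrc47 (0.979) for Hdac9 and Gins4 (0.93) for Hdac4. These are the top values among all tested genes, and where the genotypes are apart they follow in part from the genotype difference.

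The genes around the 8 were described by 13 lists of 103 genes, of which 101 were tested. In all, 22 of the 101 (21.8%) were higher and 13 (12.9%) were lower in Dnm2 +/K562E soleus. The shares over all tested genes, to be read beside these and each list below, were 12.9% higher and 7.85% lower. The 8 genes and all lists were chosen with earlier results of these data known. Their shares are therefore a description and no test of enrichment.

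**Figure D4:**
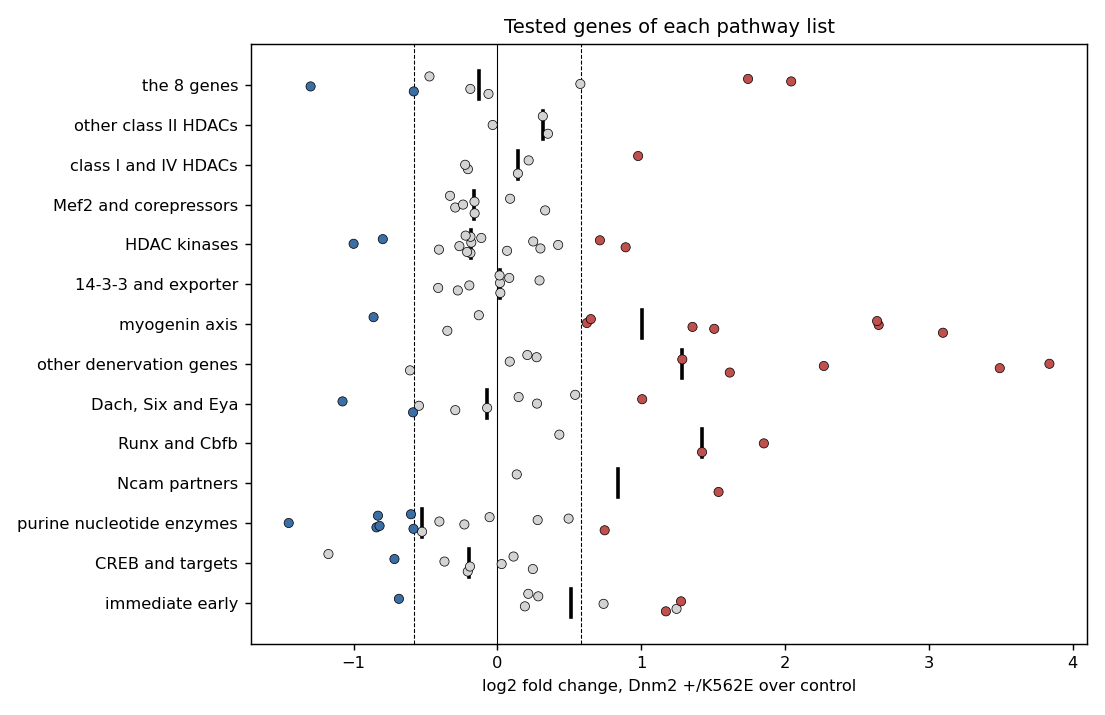
Log2 fold change, Dnm2 +/K562E over control (horizontal axis), of every tested gene in the 8-gene set and in 13 lists, with red points called higher, blue points called lower, grey points not called, and a bar at each median. The myogenin axis and the other denervation genes have 7 and 5 points called higher, and the purine nucleotide enzymes have 6 called lower.

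Among the remaining class II HDACs, none of 3 was called, and Hdac6 differed by 0.35 on the log2 scale (adjusted p = 0.0251, edgeR quasi-likelihood test). Of 5 class I and IV enzymes, Hdac11, the sole class IV member, rose from 8.5 ± 0.58 to 16.7 ± 1.09 CPM (log2 fold change 0.98, adjusted p = 1.02e-05 in that test). The partners of the class IIa enzymes, 7 MEF2 factors and corepressor subunits, had no called gene. The changes were under the fold threshold, with 608 ± 71.4 and 765 ± 72.5 CPM for Mef2c and 260 ± 11.1 and 212 ± 10.7 CPM for Mef2d in controls and Dnm2 +/K562E mice. The corepressor genes Ncor1 and Gps2 had log2 fold changes of -0.24 and -0.33.

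Of 16 kinases that phosphorylate class IIa HDACs or switch on those that do, 2 rose and 2 fell. The calcium-dependent kinase gene Camk2d rose from 47.4 ± 2.72 to 88 ± 4.23 CPM (log2 fold change 0.89), and Prkd1, for protein kinase D1, fell from 8.01 ± 2.02 to 4 ± 0.395 CPM (-1). The catalytic subunits of the AMP-activated kinase changed in opposite directions, with Prkaa1 at 26.9 ± 2.04 and 44 ± 2.06 CPM (0.71) and Prkaa2 at 175.5 ± 9.61 and 101 ± 3.56 CPM (-0.80). The genotypes did not overlap in any of these 4 genes. The Sik1 relatives Sik2 and Sik3 had log2 fold changes of -0.19 and -0.21 and were not called. None of 8 genes for 14-3-3 proteins and the exporter Xpo1 was called, and their log2 fold changes ran from -0.41 (Ywhag) to 0.29 (Ywhaz).

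In the myogenin axis, 7 of 10 genes rose and 1 fell, with a median log2 fold change of 1.00. Myog had 6.91, 4.4, 6.97 and 7.74 CPM in controls 1 to 4 and 67.1, 46.6, 47.9 and 61.5 CPM in Dnm2 +/K562E mice 1 to 4. The log2 fold change was 3.10, with an adjusted p of 7.9e-07 in edgeR's quasi-likelihood test. All acetylcholine receptor subunit genes on the list rose, led by Chrnd (7.07 ± 0.459 to 44.4 ± 6.22 CPM, 2.65) and the fetal subunit gene Chrng (0.438 ± 0.107 to 2.73 ± 0.741 CPM, 2.64). Chrna1 and Chrnb1 rose by 1.51 and 1.36, and the adult subunit gene Chrne by 0.62. Musk, the receptor kinase that organizes the synapse, rose by 0.65. Neither ubiquitin ligase gene of atrophy on the list was called higher. Trim63 fell, at 137.4, 309, 268 and 227 CPM in controls 1 to 4 and 127, 107.5, 114 and 169.5 CPM in Dnm2 +/K562E mice 1 to 4 (log2 fold change -0.86, adjusted p = 0.00873 in the same test). Control 1 lay inside the range of the Dnm2 +/K562E mice. Fbxo32 had 217.5 ± 46.1 and 199 ± 27.5 CPM, and its log2 fold change of -0.13 was above 0 with scaling by library size alone. Myod1, the related myogenic factor, was at 11.2 ± 2.01 and 8.77 ± 1.9 CPM (adjusted p = 0.116 in that test). The call of Chrne was lost without control 3 (0.54), control 4 (0.52) or Dnm2 +/K562E mouse 3 (0.579). In each of these settings 6 of the 10 genes were called higher.

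Of 10 other denervation genes, 9 were tested and 5 rose, with a median log2 fold change of 1.28. The median was 0.78 over 10 genes with no filter on low counts, and 0.79 over 8 genes with at least 10 counts in every mouse, where 4 rose. The embryonic myosin Myh3 rose from 23.1 ± 2.66 to 330.3 ± 57.1 CPM (3.84). Gdf5, a BMP-type ligand known to oppose atrophy after denervation, rose from 0.306 ± 0.301 to 3.36 ± 1.24 CPM (3.49, and 4.33 without control 2). It passed the filter through its level in Dnm2 +/K562E mice, had as few as 3 reads in a control, and was not tested with at least 10 counts in every mouse. Eda2r (2.27), the stress gene Gadd45a (1.62) and the potassium channel gene Kcnn3 (1.29) were the others that rose. Cdkn1a (-0.61, adjusted p = 0.105, edgeR quasi-likelihood test), Tnfrsf12a (0.27), the ubiquitin ligase gene Fbxo30 (0.21) and the neonatal myosin Myh8 (0.09) were not called. Without control 1, at 33.6 CPM against 87.5 to 109.3 CPM in the other controls, Cdkn1a was called lower (-0.87). Fgfbp1 was too low to test. The paper also links embryonic myosin to newly maturing fibres after muscle damage. By staining, it found low and variable but increased levels of such fibres in mutant soleus of this age. It found marginally fewer fully innervated endplates and no significant increase of fully denervated fibres. Whether the rises in this list, the myogenin axis and Ncam1 reflect lost nerve contact or newly forming fibres was not tested.

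Dach2 belongs to a network of Dach, Eya and sine oculis factors, in which 1 of 9 other genes rose and 2 fell. Dach1, its paralog, fell from 15 ± 1.72 to 9.94 ± 2.04 CPM (-0.59) and Eya1 from 25.6 ± 7.89 to 12.1 ± 0.504 CPM (-1.08), whereas Eya2 rose from 6.62 ± 0.722 to 13.3 ± 1.176 CPM (1.01). Dach1 lay at the threshold. Its call was lost with library size alone (-0.38) and with at least 10 counts in every mouse (-0.577). It was also lost without control 1 (-0.54), control 3 (-0.55), Dnm2 +/K562E mouse 1 (-0.50) or mouse 4 (-0.54). Six4 (-0.55) and Eya4 (0.54) were not called, but Six4 was without control 2 or Dnm2 +/K562E mouse 1, and Eya4 with library size alone and without control 1 or Dnm2 +/K562E mouse 2. Both paralogs of Runx1 rose from low levels, Runx3 from 0.416 ± 0.0993 to 1.53 ± 0.528 CPM (1.85) and Runx2 from 1.3 ± 0.581 to 3.49 ± 0.474 CPM (1.42). Cbfb, which encodes the shared subunit of the RUNX factors, had 33.1 ± 1.97 and 44.6 ± 3.22 CPM, with a log2 fold change of 0.43 (0.64, and called, with library size alone) and no overlap. St8sia2, for a sialyltransferase that adds polysialic acid to NCAM, rose from 1.43 ± 0.719 to 4.14 ± 0.372 CPM (1.54). St8sia4, for the other such enzyme, had 14.6 ± 4.18 and 16 ± 4.34 CPM. Ncam2 was too low to test.

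Ampd3 stood among purine nucleotide enzymes of which 6 of 13 were lower and 1 was higher. Its paralog Ampd1, the main form of skeletal muscle, had 345.7, 379.6, 391.3 and 425.1 CPM in controls and 275.4, 267, 259.6 and 269.8 CPM in Dnm2 +/K562E mice. The genotypes were apart, but the log2 fold change of -0.52 (adjusted p = 0.000129, edgeR quasi-likelihood test) was under the threshold, which it passed without control 1 (-0.581). Ampd2, the form of most other tissues, rose from 7.44 ± 1.65 to 12.4 ± 1.89 CPM (0.75). The adenylate kinase gene Ak1 (-0.82), Adsl (-0.84), Gmpr (-0.83), Nt5c1a (-1.45), Xdh (-0.60) and, at the threshold, Adssl1 (-0.58) fell. The last 2 lost their calls with library size alone, at -0.39 and -0.37, and without some single mice. Impdh1 was called higher with library size alone (0.707), where 2 of the 13 genes were higher and 4 lower.

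Sik1 is induced through CREB, and of 8 genes for CREB, its coactivators and targets 1 fell and none rose. Nr4a1, an immediate target, had 65.1, 74.7, 68.6 and 69.3 CPM in controls 1 to 4 and 50.8, 21.7, 48.2 and 48.4 CPM in Dnm2 +/K562E mice 1 to 4 (log2 fold change -0.72, adjusted p = 0.0184, edgeR quasi-likelihood test). Nr4a3 was not called (-1.18), but was called lower without control 1 (-1.52) and with the description numbers as a replicate block (-1.06). The call of Nr4a1 was lost without mouse 2, at -0.50, and with scaling by library size alone, at -0.51. Of 8 immediate early genes, Fos (1.17) and Junb (1.28) rose and Jun (-0.69) fell, whereas Egr1 and Atf3 varied widely within genotypes, with an SD of 32.4 CPM around a control mean of 30.4 CPM for Egr1. Jun was not called with scaling by library size alone (-0.48), and without control 1 Egr1 (1.81) and Fosb (1.74) were called higher as well. Fosb was also called with library size alone, without Dnm2 +/K562E mouse 2, in the exact test and in DESeq2. Fos had 12.3, 6.8, 7.75 and 12 CPM in controls 1 to 4, and the genotypes overlapped. In Dnm2 +/K562E mice, Fos was at 29.8 and 31.1 CPM in mice 1 and 4 and at 11.1 and 15.6 CPM in mice 2 and 3. Junb ran the other way, with 27.5 and 24.8 CPM in mice 1 and 4 and 39 and 31.3 CPM in mice 2 and 3, as did Egr1, with 31.9 and 23.3 against 65.6 and 81.1 CPM. With scaling by library size alone, the list medians of the MEF2 factors and corepressors, the kinases, the Dach, Eya and sine oculis factors and the CREB genes lay above 0, at 0.05, 0.02, 0.13 and 0.01, where they were -0.16, -0.19, -0.07 and -0.20.

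Muscle fibre genes were abundant in both genotypes, with Acta1 as the most abundant gene of their list. Acta1 was at 24360 ± 2085 CPM in controls and 17030 ± 1242 CPM in Dnm2 +/K562E mice. None of the 8 fibre genes was higher and 3 were lower, namely Ckm (-1.02), Myh2 (-0.62, not called with library size alone) and Myh4 (-4.63), whose controls ran from 163 to 3130 CPM and which was still lower, at -2.96, without control 4. The sum of this list was 58190 ± 2836 CPM in controls and 38860 ± 2121 CPM in Dnm2 +/K562E mice. Runx1 and Ncam1 are also made outside fibres, by immune cells and by satellite and Schwann cells, and the markers of these cells were read beside them. All 7 macrophage markers rose, with sums of 151.8, 154.6, 149.6 and 272 CPM in controls 1 to 4 and 585, 493, 475 and 361 CPM in Dnm2 +/K562E mice 1 to 4, and Lyz2 was the most abundant. Over the 8 mice, Runx1 had a correlation of 0.94 with this sum, 0.96 with the fibroblast sum, -0.98 with the endothelial sum and -0.99 with the muscle fibre sum. Over deviations from the genotype means these were 0.53, 0.60, -0.65 and -0.79. The part of macrophages in the Runx1 level was not tested.

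None of 6 tested Schwann cell markers was called, and their list summed to 119.9 ± 6.51 CPM in controls and 107.4 ± 7.89 CPM in Dnm2 +/K562E mice, with Mbp as the most abundant and Gfap too low to test. Ngfr, at 1.21 ± 0.167 and 1.7 ± 0.673 CPM, was called higher (0.72) without Dnm2 +/K562E mouse 2. Of 6 satellite cell markers, Pax7 (-2.03), Myf5 (-1.85) and Calcr (-3.47, not tested with at least 10 counts in every mouse) fell and none rose. Calcr passed the filter through its level in controls and had as few as 3 reads in a Dnm2 +/K562E mouse. The satellite cell sum was 50.2 ± 2.8 and 38.6 ± 4.55 CPM, with Cdh15 as the most abundant. Over deviations from the genotype means in the 8 mice, Ncam1 had a correlation of 0.72 with the satellite cell sum and of -0.17 with the Schwann cell sum, and over the levels themselves of -0.80 and -0.71. Fibroblast markers were higher in 5 of 6 genes, with a sum of 1610 ± 299 and 3166 ± 325 CPM and Dcn as the most abundant. Endothelial markers were lower in 1 of 6 genes (Kdr, not called with library size alone or without Dnm2 +/K562E mouse 2), with a sum of 895 ± 16.8 and 686 ± 42.3 CPM and Cdh5 as the most abundant. All 5 tested red blood cell genes were lower, with a sum of 770.0 ± 167 and 395 ± 113 CPM and Hbb-bs as the most abundant. Of 7 lymphocyte markers 1 could be tested, Cd4, which was called higher with library size alone only (1.54). With no filter on low counts all 7 were tested, and 1 was called lower. Their sum was 1.26 ± 0.635 and 1.32 ± 0.6 CPM. Over the 8 marker lists, 12 of 45 tested genes were higher and 12 lower. Over all tested genes, 12.9% were higher and 7.85% lower. The part of these cells in the levels of the 8 genes was not tested.

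**Figure D5:**
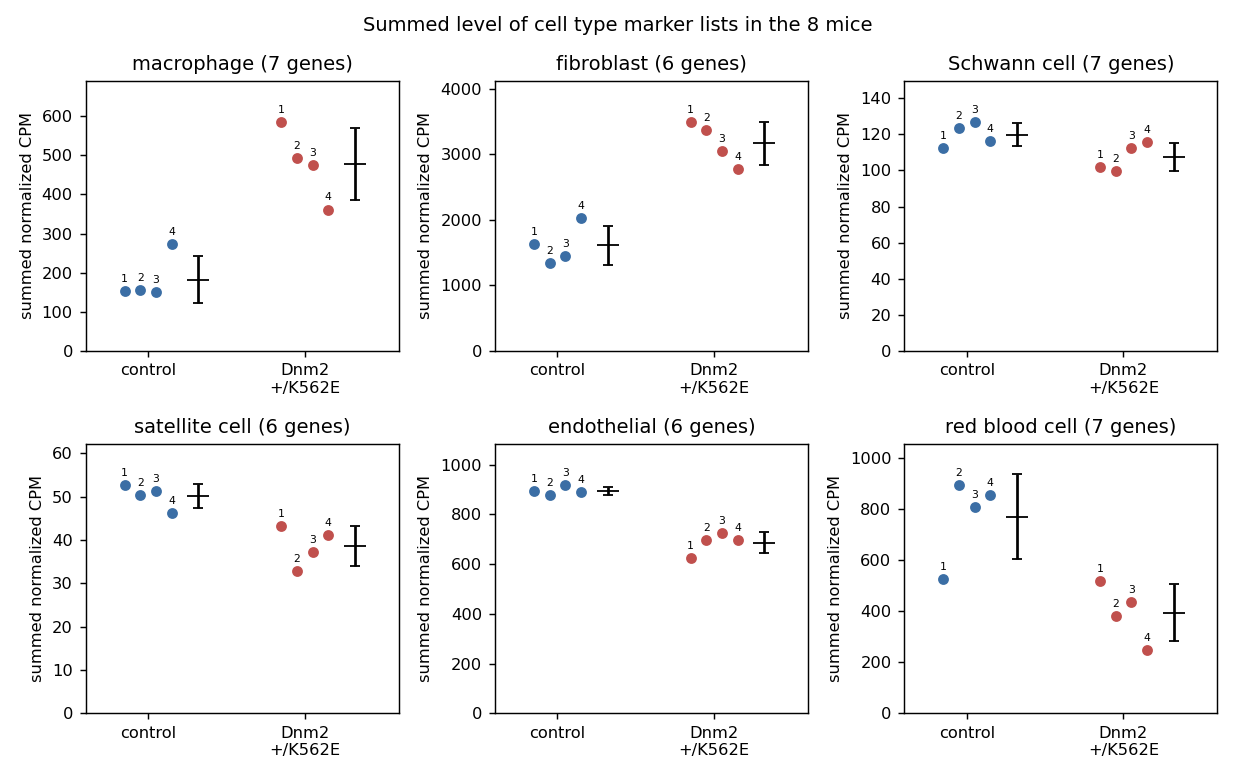
Summed normalized CPM (vertical axis, from 0) of 6 cell type marker lists in the 4 control and 4 Dnm2 +/K562E mice, numbered as in the sample titles, with the mean and SD as a bar. Macrophage and fibroblast sums are higher in all 4 Dnm2 +/K562E mice, control 4 has the highest macrophage sum of the controls (272), and Schwann cell sums overlap.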

How the data were processed

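RNA was sequenced from the soleus of 4 control (Dnm2 +/+) and 4 Dnm2 +/K562E mice, 1 library per mouse, grouped by the genotype in the labels. The authors trimmed reads with Trimmomatic 0.33, aligned them with STAR 2.5.1b to GRCm38.p5 and deposited raw counts per Ensembl gene from featureCounts, without normalization. Reads over more than 1 gene counted for every one of them, which can affect Hdac4, Hdac5, Runx1, Ncam1 and Ampd3, whose exons overlap other annotated genes. The paper describes poly A-enriched libraries and the labels a total RNA kit, and strand use is not given in the sources used here. The study's own comparison used the exact test of edgeR 3.14.0.

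Of 22880 rows, 22647 matched a symbol in GENCODE M21 (GRCm38). The files held 0 other columns of per-sample values. With edgeR 4.0.16 in R 4.3.3, filterByExpr (minimum count 10, minimum total 15) kept 14001 genes, and TMM factors and the quasi-likelihood F-test were computed with genotype as the only term. Calls needed a log2 change of 0.58 or more and a Benjamini-Hochberg adjusted p under 0.05, the study's thresholds. Log2 CPM used a prior count of 2. Any 2 libraries of a genotype differed by more than counting noise (chi-square per degree of freedom of at least 13). The fit was tested on simulated data.

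The 8 genes and all lists were chosen with earlier results of these data known. The text names Dnm2, the 8 genes, the likest genes of each by correlation, and from each list up to 6 genes by p-value, the ends of its range, untested genes and the most abundant gene. Other list genes (Fbxo32, Myod1, Fbxo30, Tnfrsf12a, Myh8, Sik2, Sik3, Egr1 and Atf3 among them) and Rnf141 and Gm11149 were picked out once values had been seen. Pnp matched no row and was not analysed here, and some genes first placed on the lists are not reported here and were left out of their counts and sums. Alternatives were median-ratio factors, library size alone, the exact test, DESeq2 1.42.0, other filters, replicate blocks, no fold threshold and leaving out each mouse.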

Additional observations from a re-analysis of the deposited data

Results flagged for a closer look

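In 312 groups of 4 mice over all tested list genes, the highest or lowest mouse stood apart by Dixon's criterion (a gap of over 0.829 of the range) in 15, and chance flags about 1 in 20 groups. None was among the 8 genes themselves. Values are normalized CPM, with the nearest mouse of the same genotype in parentheses.

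Control 1 stood apart in Ywhae at 240.0 (263), Eya4 at 10.1 (8.11), Egr1 at 78.5 (20.5) and Tek at 73.9 (82.7). Control 3 stood apart in Prx at 30.5 (26.1) and Dnm2 at 59.2 (68.5). Control 4 was high in Myh4 at 3130 (426), Six2 at 1.65 (0.717) and the macrophage markers Csf1r at 49.6 (29.4), Mrc1 at 36.1 (21.3) and Lyz2 at 147 (83.4). Among Dnm2 +/K562E mice, mouse 2 stood apart in Nr4a1 at 21.7 (48.2) and Ly6a at 99.5 (93.7). Mouse 3 was high in Eda2r at 93.3 (66.2) and mouse 4 in Jun at 91.1 (76.9).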

How the results depend on the processing

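The calls of Runx1, Ncam1 and Dach2 held under all 17 alternatives, with log2 fold changes of 1.94 to 2.25, 1.66 to 1.95 and -1.38 to -1.09. Those of Hdac5 (-0.64 to -0.37) and Sik1 (0.48 to 0.79) lie at the fold threshold and turned with the setting. With library size alone, 2865 tested genes were higher and 564 lower. Of the 8 genes 3 were higher and 1 lower, and of the pathway list genes 26 were higher and 8 lower. Hdac5 (-0.37) was no longer called, and Sik1 (0.787) was. Hdac4 (0.153) and Hdac9 (0.0278) changed sign without a call, and Ampd3 was at -0.263 (adjusted p = 0.0513, edgeR quasi-likelihood test). These shifts follow the median of all genes under that scaling (0.219). With at least 10 counts in every mouse, 1 of the 8 genes was lower, with Hdac5 at -0.572 and Sik1 at 0.587. Without a fold threshold, 3103 genes were higher and 3036 lower. Of the pathway list genes 32 were higher and 29 lower, and of the marker genes 12 were higher and 21 lower. Sik1 (0.576) and Ampd3 (-0.473) were called.

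Leaving out 1 mouse at a time gave 1588 to 1970 higher and 1026 to 1208 lower genes, 2 to 3 of the 8 genes higher and 1 to 2 lower. Hdac4 ran from -0.142 to 0.0634 (above 0 without control 3, and at 0.00089 without Dnm2 +/K562E mouse 3), Hdac5 from -0.635 to -0.54, Hdac9 from -0.344 to -0.0101, Sik1 from 0.478 to 0.696 and Ampd3 from -0.572 to -0.404. Hdac5 was not called without control 3 (-0.574), control 4 (-0.566), Dnm2 +/K562E mouse 1 (-0.547) or mouse 4 (-0.54), and Sik1 was called without control 3 (0.663), Dnm2 +/K562E mouse 2 (0.696) or mouse 3 (0.629). The cause was not tested.

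The labels number the mice of each genotype 1 to 4, but these are separate animals, and deviations of equal-numbered mice had a mean correlation of -0.114 by the title numbers and -0.0302 by the description numbers. A replicate block by title number left 1637 higher and 1036 lower genes, and the log2 fold changes were 2.04 for Runx1, 1.73 for Ncam1, -1.29 for Dach2, -0.586 for Hdac5 and 0.557 for Sik1. Neither replicate block changed a call among the 8 genes. Among the 8 genes, Hdac9, Dach2 and Runx1 had the fewest reads, with 173 to 1007 per mouse, and the effect of depth was not tested.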
